A study of Mus musculus with 32 samples.

Results

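Sncg and Sncb, which encode gamma- and beta-synuclein, were followed in the mouse stromal line EL08-1D2 grown with or without azacitidine. They were taken by gene identifier from a table of 21829 mouse genes, so that 2 of 21829 genes are described. Both were selected on their measured levels in this same comparison, with against without the drug, also by 4 runs of 4 replicate numbers. Their own values in it are therefore given as a description, and tests are given only for other genes. The series holds 16 libraries from untreated EL08-1D2 cells and 16 from EL08-1D2 cells treated with azacitidine, and n = 16 per group applies unless another n is given. EL08-1D2 is a single line derived from mouse embryonic liver stroma, and azacitidine is a nucleoside drug that, once built into DNA, captures DNA methyltransferases and thereby lowers methylation. The labels give no dose and no duration. They do not say whether libraries were grown as separate cultures, and p-values below therefore measure a spread between samples that may be technical.

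Synucleins are small, unfolded proteins that bind membranes through repeats in their first part. Beta-synuclein is known from the presynaptic endings of central neurons, where it accompanies synaptic vesicles and holds back the aggregation of its relatives. Gamma-synuclein is known from sensory and motor neurons and retinal ganglion cells, from white fat, and from advanced breast and ovarian tumours, where loss of methylation at its gene has been described in human cells. Neither is a known marker of stromal cells.

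The libraries held between 818619 and 3210801 unique molecular identifiers (UMIs, each a cDNA molecule counted once) without and between 1226861 and 5039721 with azacitidine. Libraries were more alike within 4 runs of replicate numbers (1 to 4, 5 to 8, 9 to 12, 13 to 16) than across them, for which the labels give no reason. Once the group means were subtracted, untreated libraries had a mean correlation across genes of 0.08 inside a run and -0.10 outside it, and treated libraries one of 0.34 and -0.16. On the first principal component 5 libraries stood apart, namely numbers 1 and 2 without and 1, 2 and 4 with azacitidine, at values from -44.8 to -23.5 against -12.8 to 23.0 in the others. Stromal markers were abundant in both groups: the summed level of 15 of them had a median of 15955 CPM (UMIs scaled to a common library size by TMM) without and 12695 with azacitidine. Of 14 tested, edgeR's test, described below, called Col1a1, Col1a2, Col3a1 and Fn1 as lower and Lum and Vcam1 as higher with the drug. Over all tested genes it called 5.65%. Of these 6 markers Lum alone was also called with sums over runs and with spike-in scaling. Thy1, below the filter on low counts, had 0 UMIs without and 26 with azacitidine (edgeR without the filter, adjusted p = 0.00030).

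The 2 genes lie on different chromosomes. Sncg (ENSMUSG00000023064) occupies chromosome 14 from 34370274 to 34374789 on the minus strand, and Sncb (ENSMUSG00000034891) chromosome 13 from 54758860 to 54766595, also on the minus strand (mm10, GENCODE M21, both protein coding). Their promoter sequences are shown because CpG dinucleotides are where DNA methylation, which azacitidine lowers, can lie. Methylation of these sequences was not measured here. Each runs 5′ to 3′ on the minus strand from 250 bases before to 50 after the RefSeq start (GRCm38.p6), at chr14:34374620-34374919 for Sncg and chr13:54766546-54766845 for Sncb, and capitals mark each CpG.
Sncg: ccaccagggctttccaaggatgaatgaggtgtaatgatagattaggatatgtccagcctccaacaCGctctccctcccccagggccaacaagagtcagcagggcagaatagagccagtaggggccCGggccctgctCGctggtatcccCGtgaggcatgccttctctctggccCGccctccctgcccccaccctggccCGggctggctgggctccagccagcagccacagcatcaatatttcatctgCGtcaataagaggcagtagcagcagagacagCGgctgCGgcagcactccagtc
Sncb: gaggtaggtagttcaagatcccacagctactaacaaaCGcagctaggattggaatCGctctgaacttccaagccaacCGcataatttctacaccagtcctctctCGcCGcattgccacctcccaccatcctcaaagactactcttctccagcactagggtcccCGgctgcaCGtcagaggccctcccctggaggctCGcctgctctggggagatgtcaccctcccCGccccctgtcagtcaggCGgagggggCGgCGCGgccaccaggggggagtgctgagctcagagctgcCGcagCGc
The Sncg window held 9 CpGs and the Sncb window 15, at a GC content of 61.3% and 62%. Over 32851 promoter windows of the same 300 bases the median was 7 CpGs, and 54.2% had fewer than Sncg and 65.4% fewer than Sncb. The ratio of observed to expected CpGs was 0.32 for Sncg and 0.53 for Sncb, against a median of 0.38. By number of CpGs both thus stood above the median, while by the ratio Sncg stood below it and Sncb above it. For Sncg the GENCODE gene starts 120 bases upstream of the RefSeq start, inside the window, and for Sncb the starts coincide.

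**Figure D1:**
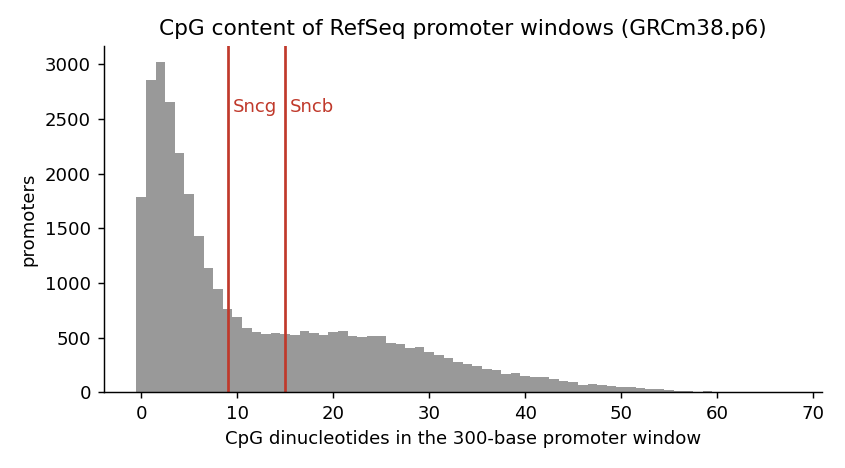
Number of CpG dinucleotides (x axis) in 32851 RefSeq promoter windows of 300 bases (y axis, number of windows), with red lines at the 2 synuclein genes. Sncg, at 9, and Sncb, at 15, lie to the right of the peak of CpG-poor windows and to the left of the CpG-rich tail.

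Of 4 short motifs searched on both strands of these windows, the GC box GGGCGG, which itself holds a CpG, was found in both genes. In Sncg it lay on the opposite strand from base 173 of the window, and in Sncb at base 250 and, on the opposite strand, at base 225. It occurs in 35.7% of all windows. TATAAA (13.6% of windows), TGACGTCA (1.79%) and TGAGTCA (5.20%) were found in neither window. A match describes letters and not binding.

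Sncg was well measured in every library. Without azacitidine its level ran from 52.8 over a median of 70.2 to 95.9 CPM (mean 72.4 ± 12.3, SD), and the raw counts from 49 to 224 UMIs. With azacitidine it ran from 118.6 over a median of 157.3 to 203.3 CPM (mean 158.0 ± 25.0), from 191 to 662 UMIs. The groups did not overlap: the lowest treated library stood 1.24-fold above the highest untreated one. The ratio of the means was 2.18, and the log2 fold change in the fit over all genes was 1.12 (SE 0.08). Of the 9344 genes tested edgeR's quasi-likelihood test called 528, or 5.65%, at a Benjamini-Hochberg adjusted p under 0.05, of which 341 (3.65%) were higher and 187 (2.0%) lower with the drug. Sncg was among the 341, the 65th largest increase, and among the 26 genes (0.278%) whose treated libraries all lay above all untreated ones. It was listed for this difference, so nothing is read from these counts. In these bulk samples more RNA per cell and more cells with the RNA cannot be told apart.

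Within each run of replicate numbers the groups were also apart. In numbers 1 to 4 the untreated libraries had 59.2, 66.5, 52.8 and 57.4 CPM and the treated ones 139.0, 145.3, 174.8 and 154.3 CPM. In numbers 5 to 8 the values were 64.7, 71.1, 67.9 and 66.8 without and 157.3, 118.6, 125.5 and 121.7 CPM with azacitidine. This second run had the lowest treated levels, with a single library, number 5, above the other 3. In numbers 9 to 12 the untreated libraries had 69.4, 95.9, 80.5 and 72.1 CPM and the treated ones 188.5, 178.1, 158.0 and 157.4 CPM. In numbers 13 to 16 they had 79.9, 72.6, 90.8 and 90.5 CPM without and 165.0, 191.0, 203.3 and 149.5 CPM with the drug. Both groups were at their highest in this last run, with means of 83.4 ± 8.8 and 177.2 ± 24.4 CPM (SD, n = 4).

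The untreated mean was lowest in numbers 1 to 4, at 59.0 ± 5.7 CPM, and stood at 67.6 ± 2.7 in numbers 5 to 8 and 79.5 ± 11.9 in numbers 9 to 12 (SD, n = 4). The treated means of the same runs were 153.3 ± 15.6, 130.8 ± 17.9 and 170.5 ± 15.4 CPM. The log2 fold change was accordingly largest in numbers 1 to 4, at 1.36 (SE 0.11). It was 0.95 (SE 0.11) in numbers 5 to 8, 1.08 (SE 0.11) in numbers 9 to 12 and 1.10 (SE 0.11) in numbers 13 to 16. Without the 5 libraries that stood apart it was 1.11. Scaling by the added spike-in RNA, which raised the median of all tested genes by 0.31 on the log2 scale, gave 1.40.

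**Figure D2:**
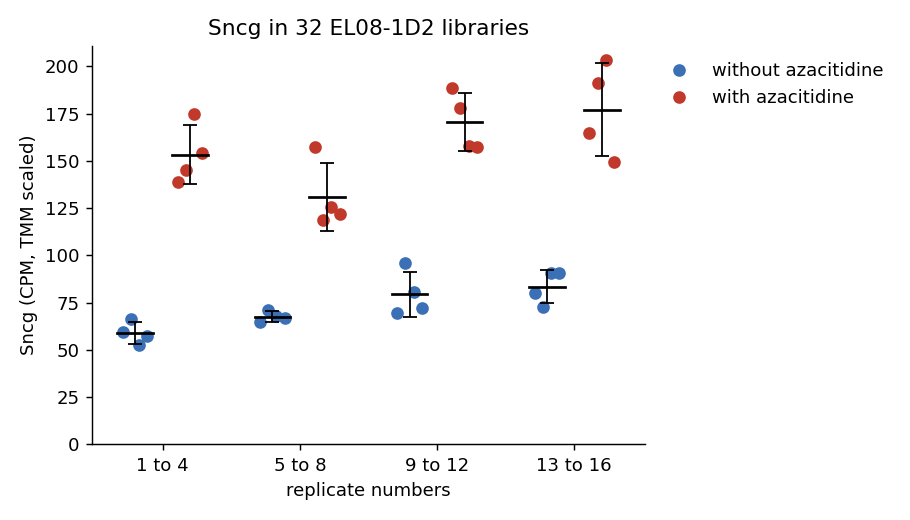
Sncg level (CPM, y axis from 0) in the 32 libraries, arranged by runs of 4 replicate numbers (x axis). Blue points are untreated and red points treated libraries, wide bars are means and whiskers 1 SD of 4 libraries. The treated points, from 118.6 to 203.3, lie above the untreated points, from 52.8 to 95.9, in each run.

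**Figure D3:**
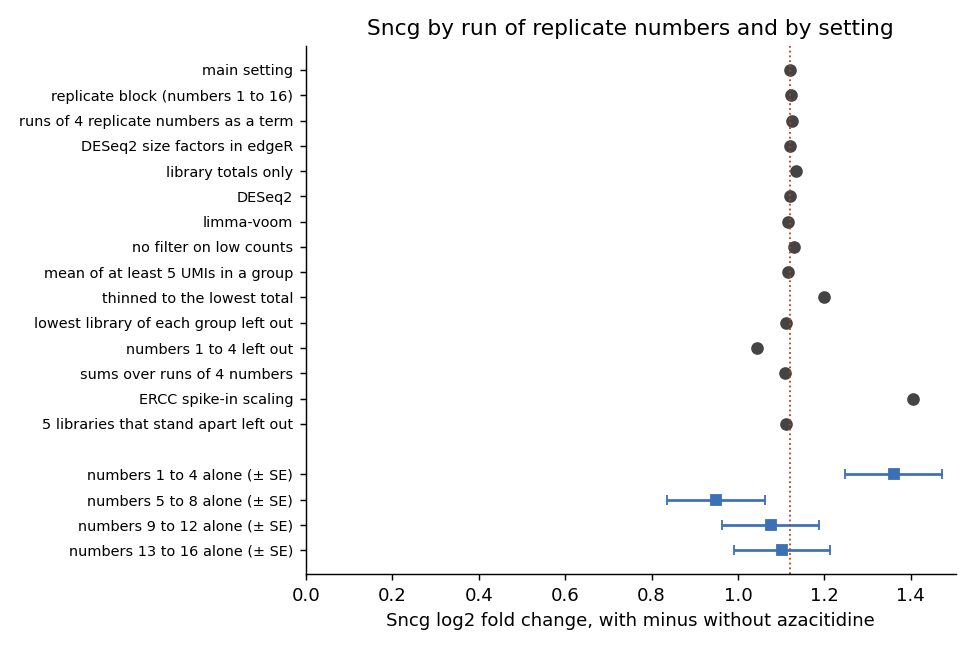
Log2 fold change of Sncg (x axis from 0) under the main setting and 14 alternatives (circles) and in each run of 4 replicate numbers (squares, ± SE). The settings lie between 1.04 and 1.40, and numbers 1 to 4 alone give the highest of the 4 runs, 1.36.

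Libraries of a group varied in Sncg by more than the counting of molecules gives. The coefficient of variation was 17.0% without and 15.8% with azacitidine, of which counting alone accounts for 9.56% and 5.69%. The part beyond counting was 14.1% and 14.7%. Over all 16 libraries of a group the relative spread was thus about as wide in the treated as in the untreated cells. That spread includes the differences between runs. Within the runs, in order, the coefficient of variation was 9.71%, 3.94%, 15.0% and 10.6% without azacitidine (n = 4). With azacitidine it was 10.2%, 13.7%, 9.01% and 13.8% (n = 4).

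Sncb was at the edge of detection. Without azacitidine 5 of 16 libraries held 1 UMI each, namely numbers 5, 11, 13, 14 and 16, and the other 11 held 0. With azacitidine 1 UMI was seen in number 3 and 0 in the other 15. That is 5 UMIs among 27338586 without and 1 UMI among 38348576 with the drug, a ratio of 0.143 with against without, with an exact 95% interval for counting error from 0.00301 to 1.27. In a library of median depth the 3 UMIs taken as a floor correspond to 1.74 CPM, and each Sncb value lay below that. Beta-synuclein RNA, if present in these cells, was not measurable library by library at this depth. Sncb did not pass the filter on low counts, which Sncg did, so 1 of the 2 genes was in the main test.

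The genes around each synuclein gene were compared in the same way. Of 17 annotated genes that start within 200 kb of Sncg 5 had UMIs. Mmrn2, the gene of multimerin 2, a glycoprotein of the endothelial matrix, lies head to head with Sncg. It starts at 34375465 on the plus strand, 0.676 kb upstream of the Sncg start, and the 2 gene bodies do not overlap. Mmrn2 was near silence without the drug, with 10 UMIs over 8 of 16 libraries and between 0 and 3 per library. With azacitidine 60 UMIs were seen over 14 of 16 libraries, with between 0 and 13 per library and a median of 3. The groups overlapped, but the rise passed the test without the filter on low counts (edgeR, log2 fold change 1.90, SE 0.43, adjusted p = 0.0023, where 860 of 21822 genes or 3.94% were called). The runs held 3, 5, 1 and 1 UMIs without and 29, 13, 6 and 12 with azacitidine. Without numbers 1 to 4, which gave 29 of the 60 treated UMIs, the log2 fold change was 1.69 and missed the threshold (edgeR, adjusted p = 0.052). With sums over runs it missed it too (edgeR, adjusted p = 0.070).

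The other neighbours of Sncg gave no call. Fam25c, 19.4 kb away on the other side, had 0 UMIs without and 5 with azacitidine, in 5 libraries with 1 each (edgeR without the filter, adjusted p = 0.23). Glud1, the mitochondrial glutamate dehydrogenase, had 44.6 ± 6.2 CPM in untreated and 46.3 ± 5.1 CPM in treated libraries (edgeR, adjusted p = 0.77). Bmpr1a, a receptor of bone morphogenetic proteins that starts 128.6 kb upstream, stood at 10.4 ± 3.3 and 8.4 ± 2.4 CPM (edgeR, adjusted p = 0.29). Shld2, of the shieldin complex of DNA repair, stood at 5.7 ± 2.3 and 5.9 ± 2.1 CPM (edgeR without the filter, adjusted p = 0.90). Among the neighbours of Sncg only Mmrn2 was thus called, in the test without the filter. Whether Mmrn2 and Sncg share regulation was not tested.

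Around Sncb 10 of 17 annotated genes had UMIs, and 6 of them passed the filter. Of these 6 edgeR called 1, beside 5.65% of all tested genes, and nothing about the region is read from this call. Cltb, the clathrin light chain B, 155.3 kb away, rose from 21.7 ± 3.1 to 29.1 ± 4.2 CPM (log2 fold change 0.42, SE 0.08, edgeR, adjusted p = 0.00031). Its libraries ran from 17.4 to 26.9 CPM without and from 23.4 to 38.0 with the drug and overlapped. With sums over runs Cltb was not called (edgeR, adjusted p = 0.17). The genes next to Sncb were low like Sncb itself: Gprin1, a regulator of neurite growth 16.7 kb away, had 24 and 38 UMIs without and with the drug, and Eif4e1b, a cap-binding factor of oocytes 17.4 kb upstream, had 0 and 1. Tspan17, a tetraspanin gene 22.8 kb upstream, stood at 16.1 ± 5.1 and 18.3 ± 8.0 CPM (edgeR, adjusted p = 0.67). The remaining 6 genes of the window were not called either, in the main test or, for those below its filter, without the filter.

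**Figure D4:**
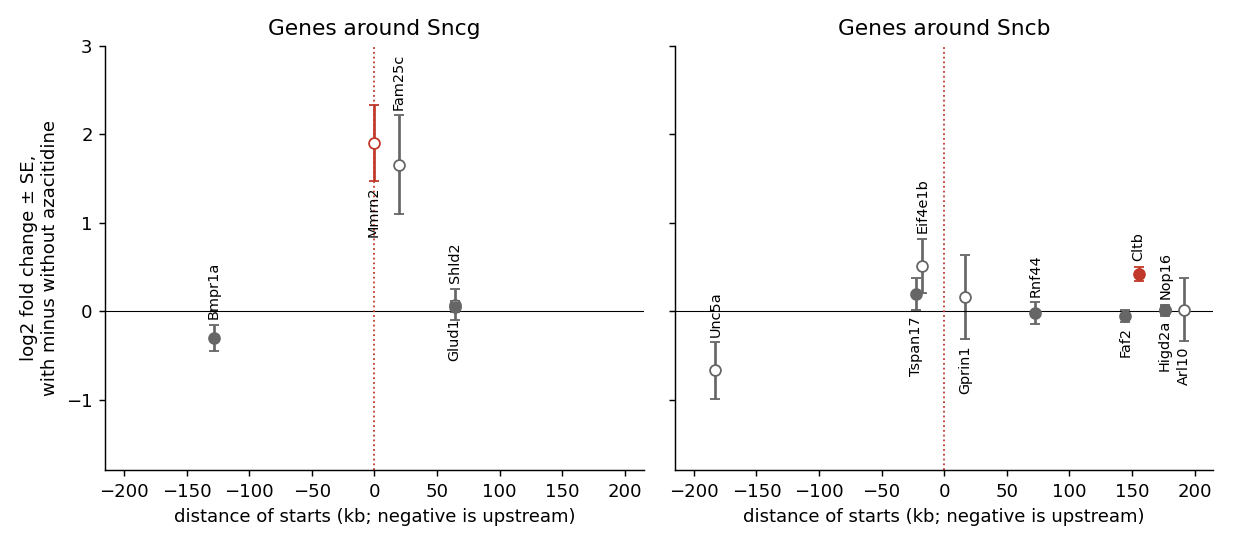
Log2 fold change with azacitidine (± SE, y axis) of genes around Sncg (left) and Sncb (right) against the distance of their starts in kb (x axis). Filled symbols are genes of the main test, open symbols genes below its filter, and red marks a call. Mmrn2, at 1.90, sits beside the Sncg start, and Cltb, at 0.42, lies 155.3 kb from Sncb.

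Genes that work with synucleins were followed in 4 lists, to be read against the 5.65% called among all tested genes. Of 41 listed genes of vesicle docking and fusion 39 were in the table and 26 were tested, of which edgeR, DESeq2 and limma-voom called 0, although 2 had an unadjusted p under 0.05 in edgeR. Their log2 fold changes ran from -0.13 to 0.28 with a median of 0.01, against 0.00 (0.000745) over all tested genes. Vamp2, a vesicle SNARE known from neurons, had 8.9 ± 2.7 CPM in untreated and 8.7 ± 2.1 CPM in treated libraries (edgeR, adjusted p = 0.81). Snap25, its neuronal partner, was below the filter with 21 and 14 UMIs. Vamp3, the related SNARE of non-neuronal cells, stood at 79.3 ± 10.0 and 72.6 ± 7.1 CPM (edgeR, adjusted p = 0.26).

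Among 27 tested genes of 34 that fold, modify or degrade synucleins 3 rose and 1 fell, with a median of 0.02, where 3.65% of all tested genes rose and 2.0% fell. Hspb1, the small heat shock protein Hsp27, stood between 2.3 and 16.3 CPM without and between 12.6 and 35.3 with azacitidine. It rose by 1.08 on the log2 scale (SE 0.15, edgeR, adjusted p = 1.5e-06), close to the size of the change in Sncg, although its groups overlapped. Without numbers 1 to 4 Hspb1 came to 0.83 and Sncg to 1.04. Without the 5 libraries that stood apart Hspb1 came to 0.94 and Sncg to 1.11. Hspb8, another small heat shock protein, rose by 0.36 (SE 0.11, edgeR, adjusted p = 0.041) and Tgm2, a transglutaminase that cross-links proteins, by 0.40 (SE 0.12, adjusted p = 0.033). Neither was called without numbers 1 to 4 (edgeR, adjusted p = 0.31 and 0.25), without the 5 libraries that stood apart (0.16 and 0.20) or with sums over runs (0.56 and 0.87). Nedd4, a ubiquitin ligase, fell from 624.2 ± 41.0 to 548.8 ± 41.9 CPM (edgeR, adjusted p = 0.0036). With spike-in scaling its sign turned, to 0.12 (edgeR, adjusted p = 0.60), and with sums over runs it was not called (0.75). The chaperone gene Hspa8 and the lysosomal membrane gene Lamp2, of the pathway that takes up cytosolic proteins, stood at 1026 and 704 CPM without and 944 and 713 with the drug, without a call (edgeR, adjusted p = 0.40 and 0.93).

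Of 21 listed genes of inherited Parkinson disease 15 were tested. Neither edgeR nor DESeq2 called any of them (0 calls each, 2 with an unadjusted p under 0.05 in edgeR), and limma-voom called 1. Synj1, a phosphatase of vesicle recycling, came nearest, at 4.8 ± 1.7 and 6.7 ± 1.4 CPM (log2 fold change 0.48, SE 0.15, edgeR, adjusted p = 0.051). The list's median was 0.04. Of 15 genes of the spindle checkpoint, hormone response and growth signalling that have been linked to gamma-synuclein 13 were tested, edgeR, DESeq2 and limma-voom called 0, and 2 had an unadjusted p under 0.05 in edgeR. Their median was -0.00153.

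Markers of cell types in which gamma-synuclein is known, and of others that the culture could hold, were counted in the same way, again beside the 5.65% of all tested genes that were called. Of 24 neuron markers 19 were in the table and 4 were tested, of which 2 rose and 1 fell. Gap43, a growth cone protein, ran from 0 to 9.6 CPM without and from 8.3 to 33.3 with azacitidine, and rose by 2.42 on the log2 scale (SE 0.24, edgeR, adjusted p = 4.5e-09). Gap43 passed the filter on low counts through the treated libraries alone, so its place in this count cannot be read against the 5.65%. Tubb3, the neuronal beta-tubulin, rose from 21.8 ± 5.3 to 31.4 ± 7.0 CPM (edgeR, adjusted p = 0.0025), and was not called with sums over runs (0.44). Ncam1, a neural adhesion molecule also made by stromal cells, fell from 128.3 ± 18.8 to 97.0 ± 10.9 CPM (edgeR, adjusted p = 4.0e-05), and was not called with sums over runs (0.13) or spike-in scaling (0.70). The summed level of the 19 markers ran from 134.4 to 200.9 CPM without and from 124.5 to 192.5 with the drug. Ncam1 makes up most of this sum, and its fall there offsets the rises of Gap43 and Tubb3. Below the filter, Nefl, Nefh, Stmn3, Elavl4 and Calca had 0 UMIs without and 3, 1, 2, 1 and 1 with azacitidine in all 16 libraries together. Stmn2, Elavl3, Syp and Scn9a had 2, 1, 1 and 1 without and 5, 3, 4 and 2 with it. The others were seen more often: Uchl1 at 36 and 95 UMIs, Snap25 at 21 and 14, and Mapt at 17 and 21. Syt1 had 15 and 15, Prph 14 and 29, and Map2 12 and 23.

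Of 16 adipocyte markers with a line in the data, 7 were tested and 1 rose: Fabp4, a fatty acid binding protein, from 3.9 ± 2.3 to 10.6 ± 4.8 CPM (edgeR, adjusted p = 0.00016). Fabp4 passed the filter on low counts through the treated libraries alone, so this count cannot be read against the share of all genes. After thinning, and without the 5 libraries that stood apart, Fabp4 was below the filter and not tested. Their summed level ran from 247.4 to 489.1 CPM without and from 210.1 to 492.8 with the drug. Adipoq had 2 and 1 UMIs and Cidec 0 and 2, while Pparg, the regulator of fat cell formation, had 11.3 CPM untreated and 12.2 CPM treated and no call (edgeR, adjusted p = 0.73). Of 11 Schwann cell markers with a line in the data, 2 were tested, and edgeR, DESeq2 and limma-voom called 0 of these, with 0 at an unadjusted p under 0.05. Below the filter S100b rose from 49 to 205 UMIs and Erbb3 from 0 to 14 (edgeR without the filter, adjusted p = 1.6e-06 and 0.0048). The summed Schwann markers, led by Pmp22, ran from 308.0 to 605.1 and from 311.0 to 650.9 CPM. Epithelial and blood markers moved with azacitidine: the sum of 10 epithelial markers, mostly Krt8, Krt18 and Krt19, ran from 4.4 to 17.0 CPM without and from 75.9 to 153.7 with it, with Epcam at 0 and 1 UMI. The sum of 10 blood markers ran from 10.9 to 25.4 and from 18.7 to 34.1 CPM, with Ptprc at 1 and 4 UMIs. All 3 tested epithelial markers and the 1 tested blood marker, Cd53, rose (edgeR), beside 3.65% of all tested genes. Krt8, Krt18 and Krt19 had means of 1.8, 1.3 and 2.0 CPM without the drug and 60.8, 34.1 and 10.5 with it. These 3 passed the filter on low counts through the treated libraries alone, so their count cannot be read against the 3.65%. Cd53 stood at 7.4 ± 2.2 CPM without and 14.2 ± 2.8 with the drug. As the 1 blood marker above the filter it cannot be read against the 3.65% either, and which group took it past the filter was not tested. Krt19 was not called with sums over runs (edgeR, adjusted p = 0.242). Without the filter 4 of 10 epithelial and 2 of 9 blood markers rose and 0 fell, where 718 of all 21822 genes rose and 142 fell. The part of other cell types in the level of Sncg was not tested.

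**Figure D5:**
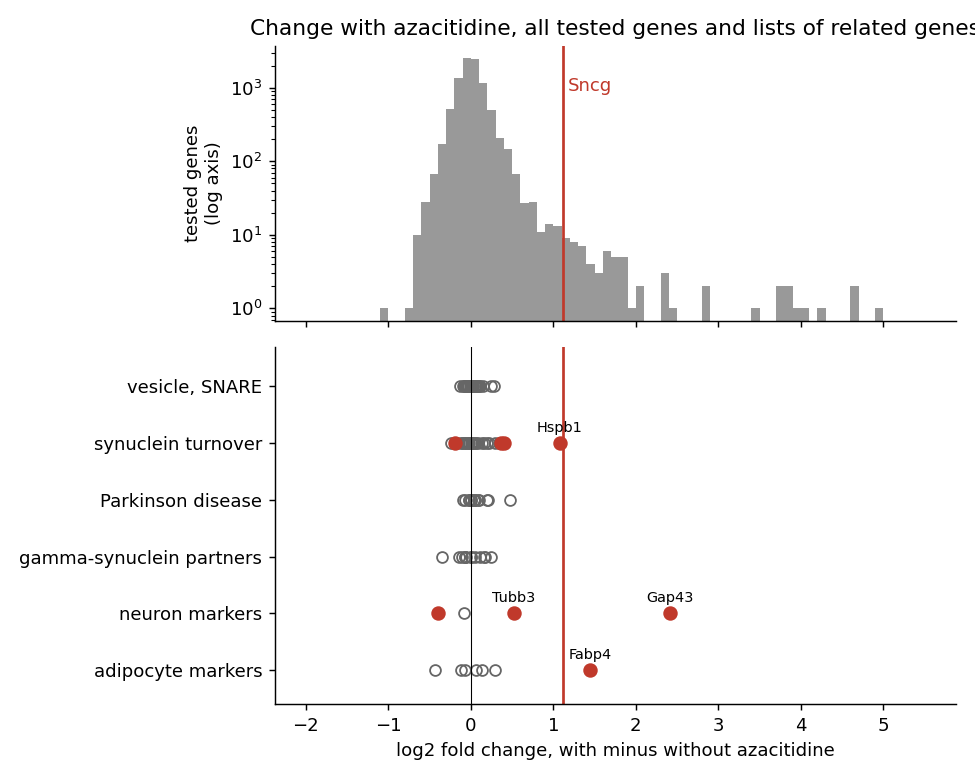
Top, log2 fold changes of the 9344 tested genes (x axis; number of genes on a log axis), with a red line at Sncg. Bottom, tested members of 6 lists of related genes, red where called by edgeR. Sncg lies at 1.12, Hspb1 at 1.08, Gap43 at 2.42 and Fabp4 at 1.44, while the vesicle list spans -0.13 to 0.28.

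The genes whose level followed Sncg most closely over the 32 libraries were higher in treated libraries. By Pearson correlation of log2 CPM with Sncg, among 9342 genes compared, the first 5 were Krt8, Ndufa4l2, Rhox5, Plac8 and Sohlh2, at r from 0.92 to 0.89 (Spearman's rho from 0.68 to 0.79), against a median of -0.01 over all genes. They are a keratin of simple epithelia, a mitochondrial protein induced by hypoxia, a homeobox gene of the reproductive tract, a cysteine-rich protein and a germ cell transcription factor. All 5 share with Sncg a higher level in treated libraries, which sets these values, and they lie on 5 other chromosomes. Krt8 rose from 1.8 ± 0.8 to 60.8 ± 12.7 CPM, so that Sncg, already present without the drug, changed by far less than the genes it followed.

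After subtraction of the group means the order was another. The 5 genes most like Sncg were then Eif4a2, a translation initiation helicase, Mif, a cytokine, Anxa2, a membrane-binding annexin, the predicted gene Gm10169, and Cbr2, a carbonyl reductase, at r from 0.77 to 0.71 (rho from 0.72 to 0.82, 32 libraries). None was called with azacitidine in the main test (edgeR, adjusted p from 0.15 to 0.98). With the run of replicate numbers as a term Eif4a2, Mif, Gm10169 and Cbr2 were called as lower (edgeR, adjusted p = 0.0491, 0.0163, 0.0255 and 0.000108). With sums over runs they were not called, and with spike-in scaling all 4 lay above 0 and were not called (edgeR, adjusted p from 0.594 to 0.986). None of them is among the 5 named before. Libraries of a run share part of their variation, so these points are not independent. These 10 genes were picked as the highest of all correlations, so no p is given.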

How the data were processed

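The values the authors deposited are counts: UMIs, in whole numbers, for each gene in 32 libraries of polyadenylated RNA, with no normalization in the values. Per the submitters' processing notes, STAR 2.4.0, bedtools 2.17.0 and build mm10 were used; the annotation, the collapsing of identifiers and the use of strand are not given in the sources used here. Of 21897 lines 68 were ERCC spike-ins with 0.106% of UMIs; library sizes and tests leave them out. Symbols and positions came from GENCODE M21 (21506 of 21829 genes matched), promoters from RefSeq (GRCm38.p6), where both synuclein genes matched.

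Genes were tested with edgeR 4.0.16 (main test; quasi-likelihood, robust, TMM, default filter by group, two-sided, 16 against 16, Benjamini-Hochberg adjusted p under 0.05) over 9344 genes, tested on simulated data. DESeq2 1.42.0, limma 3.58.1 (voom), R 4.3.3, Python 3.11.15, scipy 1.17.1 and matplotlib 3.10.9 were also used. SEs come from the fold change and F. CPM use TMM library sizes, and correlations a prior count of 2. Intervals and floors (3 counts) cover counting error only.

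The 2 genes, the lists and the tests were chosen with earlier results of these data known. Named by rule were the 2 genes, genes starting within 200 kb, the 5 most alike by each measure and up to 4 called members of each list; other listed genes were picked after their values were seen. A further gene of the family is not reported here. Alternatives were the replicate number or the run of 4 as a term, other scalings, tools and filters, thinning to 818619 UMIs, left-out libraries and sums over runs. Added after the data were seen were spike-in scaling, leaving out 5 libraries, and other choices combined with no filter.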

Additional observations from a re-analysis of the deposited data

How the results depend on the processing

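The log2 fold change of Sncg kept its direction under all 14 alternatives, between 1.04 (numbers 1 to 4 left out) and 1.40 (spike-in scaling), and moved by more than the spread between libraries (SD 0.24) with spike-in scaling alone. Neither the labels nor the data establish that the replicate numbers pair the samples: same-numbered libraries correlated between -0.29 and 0.83 in their deviations from the group means (mean 0.22, against -0.01 for other numbers), over 0.1 in 12 of 16 pairs, and 4 of 16 correlated best with their own number. With the replicate block 518 genes were higher and 379 lower (341 and 187 in the main test), 7 in place of 4 members of the 4 synuclein-related lists were called, and Sncg was at 1.12. With the run as a term the counts were 563, 430 and 7. Without the filter 718 genes were higher, after thinning 172 higher and 82 lower, with sums over runs 105 and 3, and with spike-in scaling 1 lower beside 354 higher. The related lists had 2 called members without numbers 1 to 4, with spike-in scaling and without the 5 libraries that stood apart, and 1 with sums over runs. Of the neighbours 1 was called in the main test. It was 2 without the filter, alone or with the replicate block, the run term, spike-in scaling, DESeq2 or the 5 libraries left out, and 0 with sums over runs, with or without the filter. The sign turned for 13 of the named genes, of which Nedd4 alone was called in the main test and none was called after the turn. With spike-in scaling Nedd4 came to 0.12, Faf2 to 0.27, Rnf44 to 0.31, Bmpr1a to 0.082, Eif4a2 to 0.12, Mif to 0.11, Anxa2 to 0.29, Gm10169 to 0.12 and Cbr2 to 0.0042. Thinning took Nop16 to -0.068, Rnf44 to 0.036 and Anxa2 to 0.0049, and library totals took Anxa2 to 0.0019. Without numbers 1 to 4 Rnf44 came to 0.13 and Tspan17 to -0.067, without the 5 libraries Rnf44 to 0.077, Tspan17 to -0.064 and Anxa2 to 0.012, and with sums over runs Rnf44 to 0.0074. Without the filter Arl10 came to -0.044 with the replicate block, -0.025 with the run term, -0.00050 without the 5 libraries, -0.053 without numbers 1 to 4 and -0.032 with sums, and Gprin1 to -0.0075 with the run term, -0.053 without the 5 libraries and -0.46 without numbers 1 to 4. Over 40 named genes other than Sncg, 438 values kept their direction and side of the threshold, 27 changed sign, 23 were no longer called and 7 were newly called; the causes were not tested. Depth limits Sncb, Mmrn2 and Fam25c most, at 5 and 1, 10 and 60, and 0 and 5 UMIs without and with the drug.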
